A study of Homo sapiens with 36 samples.

Results

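Kinesin-1 is the motor that carries membrane cargo, mitochondria and RNA granules along microtubules away from the cell body. It is a tetramer of a pair of heavy chains, which hold the motor domain, and a pair of light chains, which bind cargo adaptors and hold the motor inactive until cargo is bound. KIF5B is the heavy chain of most tissues, whereas KIF5A and KIF5C are enriched in neurons, and KIF5A carries neurofilament and mitochondria in long axons and is mutated in hereditary spastic paraplegia and amyotrophic lateral sclerosis. The genes described here are 6 of the 28516 gene symbols counted in human neural stem cells, namely the heavy chains KIF5A, KIF5B and KIF5C and the light chains KLC1, KLC2 and KLC4. They were picked by family symbol, but KIF5A leads the group because it was already known to be high after MEIS1 activation in these libraries. Its values in MEIS1-OE and in every comparison that uses MEIS1-OE or ctrl-OE are therefore given as a description with no test, and the other 5 genes were tested throughout.

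RNA was sequenced from 36 libraries of a commercial human neural stem cell line (Gibco hNSC), 48 h after lentiviral transduction, with 6 libraries in each of 6 conditions. MEIS1-OE and MEIS2-OE cells carried dCas9-VP64 with the MPH activator and a single guide to the homeobox gene MEIS1 or MEIS2, and ctrl-OE cells carried the same activation system with a non-targeting guide. MEIS1-KO and MEIS2-KO cells received Cas9 with a mixed pair of guides to MEIS1 or MEIS2, and ctrl-KO cells received the Cas9 vector with non-targeting guides. Because all MEIS1-OE libraries share a single guide, an effect of MEIS1 and an effect of that guide at another site cannot be told apart. Nothing in the labels says that the libraries are separate cultures, so the p-values measure the spread between these libraries, and in bulk RNA fewer cells of a type and less RNA per cell cannot be told apart. Counted reads ranged from 15429985 to 22940493 a library (median 20324720), and the level of every gene is given as counts per 1000000 reads (CPM) after scaling library sizes by the trimmed mean of M values (TMM). The targeted genes followed the labels: MEIS1 was 310.2 ± 14.3 CPM in MEIS1-OE against 17.8 ± 1.10 in ctrl-OE, and 8.96 ± 1.74 in MEIS1-KO against 25.7 ± 1.66 in ctrl-KO (mean ± SD, n = 6 each). MEIS2 was 824 ± 20.04 CPM in MEIS2-OE against 22.6 ± 1.23 in ctrl-OE, and 12.1 ± 0.936 in MEIS2-KO against 25.8 ± 1.58 in ctrl-KO.

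Some stem cell markers were well expressed in all conditions, with VIM between 1741 and 3417 CPM, NES between 823 and 2115 CPM and SOX2 between 86.4 and 322 CPM over the 36 libraries. HES5 had only 0 to 35 counts. The arms were not even: 7 of 10 stem cell markers were lower in ctrl-OE than in ctrl-KO and 0 were higher. Their median log2 difference was −0.74, where 51.4% of all genes were called. Of 16 neuronal markers, several were well expressed, among them MAP2 (4200 to 16107 counts a library), TUBB3 (2204 to 6194), NEFM (1653 to 4171), NEFL (1316 to 2577), INA (1113 to 2504), ELAVL3 (1084 to 2040) and SYT1 (647 to 1143). Others were near 0: ELAVL4 had no count, RBFOX3 at most 1 count and STMN2 at most 6 counts in any library, and DCX had 2 to 31 counts. The glial genes GFAP (0 to 9 counts), MBP (0 to 7 counts) and MOG (0 to 2 counts) were also near 0.

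On GRCh37 (GENCODE v44 lifted), KIF5A lies at chr12:57939809-57980416 on the + strand, KIF5B at chr10:32297943-32345353 on the − strand and KIF5C at chr2:149632819-149883273 on the + strand. KLC1 lies at chr14:104028233-104180586, KLC2 at chr11:66024765-66035331 and KLC4 at chr6:43008515-43042833, all on the + strand. The first 1199 bases of the KIF5A gene span overlap the opposite-strand gene DCTN2 at its 5′ end, but the canonical KIF5A transcript starts at 57943827, beyond the end of DCTN2 at 57941007. KLC1 overlaps BAG5 and XRCC3, and KLC4 overlaps CUL7 and MRPL2, all on the opposite strand, and KLC1 also shares its strand with COA8. Long noncoding RNA genes also overlap KIF5C and KLC2 on the opposite strand. The strand setting of the read counting is not given in the sources used here. Part of the counts of KLC1, KLC4, KIF5C and KLC2 may therefore belong to opposite-strand genes. The same may hold for KIF5A if the counting included the 1199 bases shared with DCTN2. Reads of COA8 would not be separated from KLC1 by strand in any case.

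RefSeq start-site windows matched 3 of the 6 genes, with 4 windows in all, and KIF5A, KLC2 and KLC4 had none. The 250 bases before the start of the most abundant heavy chain, KIF5B (GRCh38.p14, chr10:32056426-32056675, − strand), of the neuronal heavy chain KIF5C (chr2:148874977-148875226, + strand) and of KLC1, the light chain that rose with MEIS2 activation (chr14:103628961-103629210, + strand), are shown because these 3 genes supply most kinesin-1 transcripts. Capitals mark the cyclic AMP response element TGACGTCA, which reads the same on both strands. 
KIF5B: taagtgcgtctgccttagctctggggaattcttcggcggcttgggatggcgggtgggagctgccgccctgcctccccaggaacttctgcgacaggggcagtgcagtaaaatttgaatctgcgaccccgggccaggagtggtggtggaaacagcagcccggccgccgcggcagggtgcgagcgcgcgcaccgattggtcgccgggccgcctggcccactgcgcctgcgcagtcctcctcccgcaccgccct
KIF5C: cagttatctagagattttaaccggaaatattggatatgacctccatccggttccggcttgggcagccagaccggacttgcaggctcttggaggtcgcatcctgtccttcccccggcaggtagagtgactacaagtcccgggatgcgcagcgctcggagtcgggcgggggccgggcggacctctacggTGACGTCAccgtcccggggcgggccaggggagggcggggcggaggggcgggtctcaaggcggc
KLC1: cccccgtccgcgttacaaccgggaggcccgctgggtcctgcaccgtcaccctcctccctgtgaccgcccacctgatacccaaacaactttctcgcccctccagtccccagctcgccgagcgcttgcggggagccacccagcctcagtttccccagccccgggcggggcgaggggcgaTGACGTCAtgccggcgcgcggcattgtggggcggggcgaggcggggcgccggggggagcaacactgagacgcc
The MEIS core TGACAG was searched on both strands and was in none of the 4 windows, against 13.0% of 35116 RefSeq windows of the same length. At that share, absence from 4 windows is not unusual, and no sequence at KIF5A was searched. TGACGTCA was looked for after the sequences had been read, and is in the KIF5C and KLC1 windows shown, against 1.65% of all windows. KIF5C and KLC1 thus share these letters near their start, while their levels moved differently, as the values of each gene show.

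KIF5A stood between 8.64 and 21.2 CPM in every library outside MEIS1-OE. In ctrl-OE it ranged from 17.4 CPM to 19.6 CPM with a median of 18.9, and in MEIS1-OE from 82.5 to 95.3 CPM with a median of 88.3. All 6 MEIS1-OE libraries lay above all 6 ctrl-OE libraries. This is the contrast that picked the gene, and its log2 fold change was 2.24 (SE 0.06), or 4.73-fold. In MEIS2-OE KIF5A ranged from 18.7 to 21.2 CPM with a median of 20.6, which overlaps ctrl-OE. There, 4 libraries lay above all ctrl-OE libraries, and the log2 fold change was 0.11 (SE 0.06). MEIS1-OE exceeded MEIS2-OE by 2.13 on the log2 scale (SE 0.06). KIF5A counts were 1663 to 2095 in MEIS1-OE and 411 to 437 in ctrl-OE.

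In the knockout arm KIF5A was tested, since its choice rested on its level in MEIS1-OE. Earlier results of these data were known when it was chosen, so the test is not fully independent of the choice. ctrl-KO ranged from 10.7 to 12.6 CPM with a median of 11.2, MEIS2-KO from 8.64 to 9.86 CPM with a median of 9.33, and MEIS1-KO from 9.21 to 12.0 CPM with a median of 10.2. All 6 MEIS2-KO libraries were below all 6 ctrl-KO libraries, whereas the MEIS1-KO libraries overlapped the controls, with 4 of the 6 below every control. KIF5A fell by 0.28 on the log2 scale in MEIS2-KO (SE 0.06, 95% interval −0.41 to −0.16, edgeR adjusted p = 0.00255), a change of −17.7%. In MEIS1-KO the log2 fold change was −0.12 (SE 0.06, 95% interval −0.25 to 0.00, edgeR adjusted p = 0.434, unadjusted p = 0.0505). The difference between the knockouts themselves, MEIS1-KO minus MEIS2-KO, was 0.16 (SE 0.06, edgeR adjusted p = 0.855, unadjusted p = 0.0168), so they were not shown to differ. In MEIS2-KO 10.0% of the 19689 tested genes passed the threshold, and in MEIS1-KO 1.46% did. These shares move with single libraries: without replicate 5 of every condition 946 genes passed in MEIS2-KO instead of 1974, and without replicate 3 of every condition 108 passed in MEIS1-KO instead of 287. Of the 6 genes, 1 was called in MEIS2-KO (KIF5A) and 0 in MEIS1-KO, where by unadjusted p 0 of the 6 were under 0.05 as well.

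The order of KIF5A levels was MEIS1-OE, MEIS2-OE, ctrl-OE, ctrl-KO, MEIS1-KO and MEIS2-KO, and it was the same with TMM, with median-ratio size factors and with totals alone. Ranges did not overlap between MEIS1-OE and MEIS2-OE or between ctrl-OE and ctrl-KO, and they overlapped between every other pair of neighbours. The plot of the 6 genes by library shows MEIS1-OE standing apart for KIF5A, which is the difference on which KIF5A was picked.

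**Figure D1:**
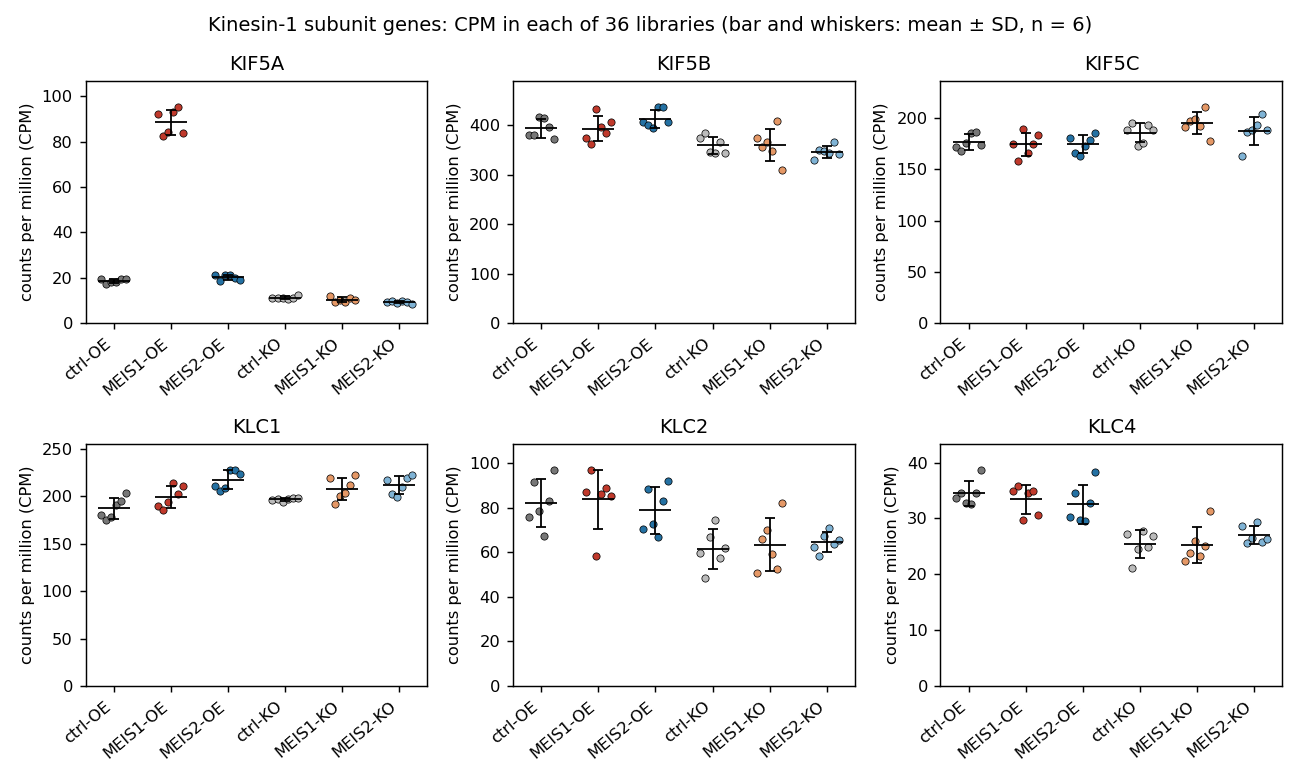
Level of each kinesin-1 gene (y axis, CPM, from 0) in each library of the 6 conditions (x axis); points are libraries, and the bar and whiskers are the mean ± SD of 6. KIF5A in MEIS1-OE sits between 82.5 and 95.3 CPM, and all other libraries are at or below 21.2 CPM.

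KIF5B, the heavy chain found in nearly all cells, did not follow KIF5A. It ranged from 361 to 432 CPM in MEIS1-OE (median 391) and from 373 to 416 CPM in ctrl-OE (median 389), and the ranges overlap. The log2 fold change was 0.00 with a 95% interval of −0.10 to 0.10 (edgeR adjusted p = 0.986), so a change of the size seen for KIF5A lies far outside the interval. It also passed no threshold in MEIS2-OE (0.07, 95% interval −0.03 to 0.17), MEIS1-KO (0.01, −0.09 to 0.10) or MEIS2-KO (−0.05, −0.15 to 0.05). KIF5C, the other neuron-enriched heavy chain, ranged from 158 to 189 CPM in MEIS1-OE (median 174) and from 167 to 186 CPM in ctrl-OE (median 174). Its log2 fold change was −0.02 in MEIS1-OE (95% interval −0.12 to 0.08, edgeR adjusted p = 0.900), −0.02 in MEIS2-OE, 0.07 in MEIS1-KO and 0.01 in MEIS2-KO, and it was called in none of the 8 comparisons. The 2 paralogs enriched in neurons therefore had separate values in MEIS1-OE: 88.5 ± 5.60 CPM against 18.7 ± 0.891 in ctrl-OE for KIF5A, and 174 ± 11.4 against 176 ± 7.53 for KIF5C.

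Per kilobase of transcript, KIF5A was the least abundant heavy chain in every condition. In ctrl-OE KIF5A was 3.24 ± 0.154 CPM per kb, KIF5C 25.4 ± 1.09 and KIF5B 67.1 ± 3.17. In MEIS1-OE KIF5A was 15.3 ± 0.969, KIF5C 25.1 ± 1.64 and KIF5B 67.0 ± 4.30, so KIF5A remained the lowest of the heavy chains after activation. KIF5A made up 3.39 ± 0.229% of heavy chain transcripts in ctrl-OE and 14.3 ± 1.15% in MEIS1-OE. Its share was 3.54 ± 0.217% in MEIS2-OE, 2.18 ± 0.166% in ctrl-KO, 1.98 ± 0.187% in MEIS1-KO and 1.84 ± 0.0957% in MEIS2-KO. The summed level of KIF5B and KIF5C was 92.5 ± 3.94 CPM per kb in ctrl-OE and 92.1 ± 5.75 in MEIS1-OE, and that of all 3 heavy chains was 95.7 ± 3.92 and 107 ± 5.64. The shares depend on the length assigned to each gene, and with the union of all annotated exons KIF5A made up 1.75 ± 0.122% in ctrl-OE and 7.79 ± 0.674% in MEIS1-OE.

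**Figure D2:**
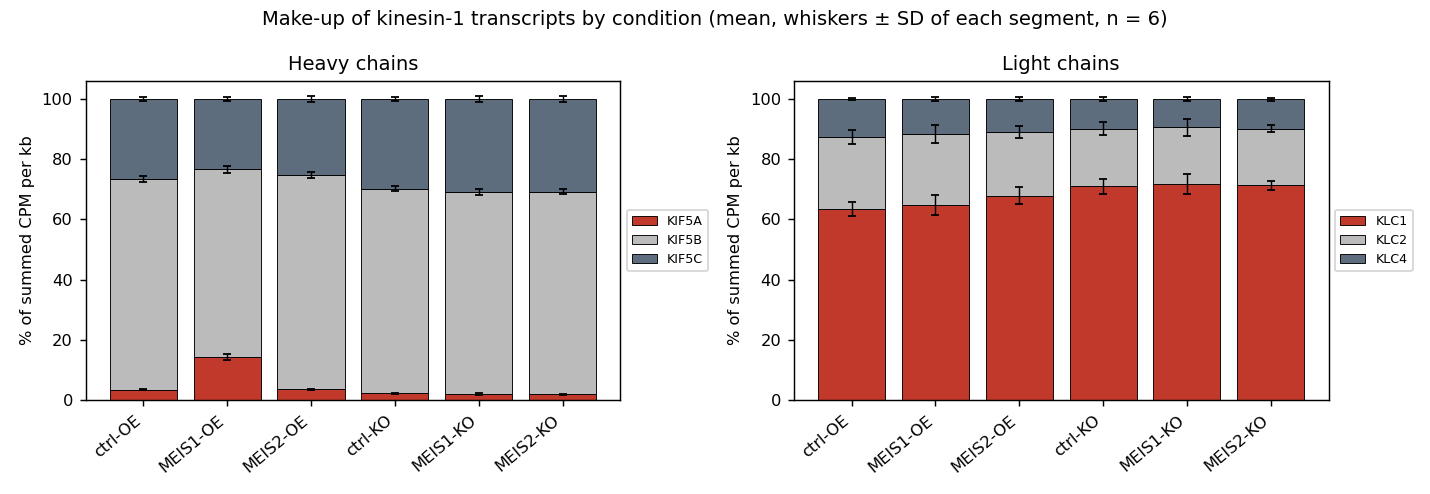
Share of each gene (y axis, percent of the summed CPM per kb of its class) among heavy chains and among light chains in each condition; segments are means of 6 libraries and whiskers the SD of each segment. The KIF5A segment is 14.3% in MEIS1-OE and 1.84% to 3.54% elsewhere.

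KLC1, the main light chain of the nervous system, was the subunit that rose with MEIS2 activation. It ranged from 206 to 228 CPM in MEIS2-OE (median 217) and from 175 to 203 CPM in ctrl-OE (median 185). All 6 MEIS2-OE libraries lay above all 6 ctrl-OE libraries, and KLC1 rose by 0.22 on the log2 scale (SE 0.04, 95% interval 0.13 to 0.30, edgeR adjusted p = 0.00163), or 16.2%. KLC1 was the only one of the 5 genes tested there to be called, where 1.35% of all tested genes were. In MEIS1-OE, where 9.10% of all tested genes were called, none of the 5 genes tested was, and KLC1 had 186 to 213 CPM and a log2 fold change of 0.09 (SE 0.04, 95% interval 0.00 to 0.18, edgeR adjusted p = 0.217, unadjusted p = 0.0401, the only one of the 5 under 0.05).

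MEIS2 knockout did not lower KLC1. Its range was 199 to 222 CPM in MEIS2-KO (median 213) and 194 to 198 CPM in ctrl-KO (median 197), and all 6 MEIS2-KO libraries exceeded all 6 controls. This separation rests on an unusually narrow control group: the SD was 1.29 CPM in ctrl-KO, against 9.50 to 11.6 CPM in every other condition. The log2 fold change was 0.10 (SE 0.04, edgeR adjusted p = 0.118), which missed the threshold. It passed in 4 of 14 alternative analyses, with adjusted p from 0.0304 to 0.296 over all 14. In MEIS1-KO KLC1 ranged from 192 to 222 CPM and its log2 fold change was 0.08 (SE 0.04, edgeR adjusted p = 0.483). The difference between activation and knockout of MEIS2, each against its own control, was 0.11 (SE 0.06, edgeR adjusted p = 0.376) for KLC1. KLC1 was lower in MEIS1-OE than in MEIS2-OE by −0.13 on the log2 scale (SE 0.04), and this missed the threshold (edgeR adjusted p = 0.0584, passed in 5 of 14 alternatives).

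KLC2 and KLC4, light chains that bind cargo adaptors as KLC1 does, did not pass the threshold in any MEIS1 or MEIS2 comparison. KLC2 ranged from 58.2 to 97.1 CPM in MEIS1-OE and from 67.2 to 96.9 CPM in ctrl-OE, and it had the widest spread of the 6 genes, with a coefficient of variation of 13.7% averaged over the conditions against 4.48% for KLC1. Its 95% interval in MEIS1-OE ran from −0.19 to 0.25 on the log2 scale, so a change inside these bounds was not excluded. KLC4 ranged from 29.6 to 35.8 CPM in MEIS1-OE and from 32.6 to 38.7 CPM in ctrl-OE, with a log2 fold change of −0.05 (95% interval −0.19 to 0.10). In MEIS2-OE the log2 fold changes were −0.06 for KLC2 and −0.08 for KLC4, and in the knockouts they lay between −0.01 and 0.09. Per kilobase, KLC1 made up 63.4% to 71.8% of light chain transcripts over the 6 conditions, KLC2 18.8% to 24.0% and KLC4 9.40% to 12.6%. The ratio of summed heavy to summed light chain levels per kb was 0.830 ± 0.0708 in ctrl-OE, 0.894 ± 0.0890 in MEIS1-OE and 0.789 ± 0.0376 in MEIS2-OE, with overlapping ranges.

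**Figure D3:**
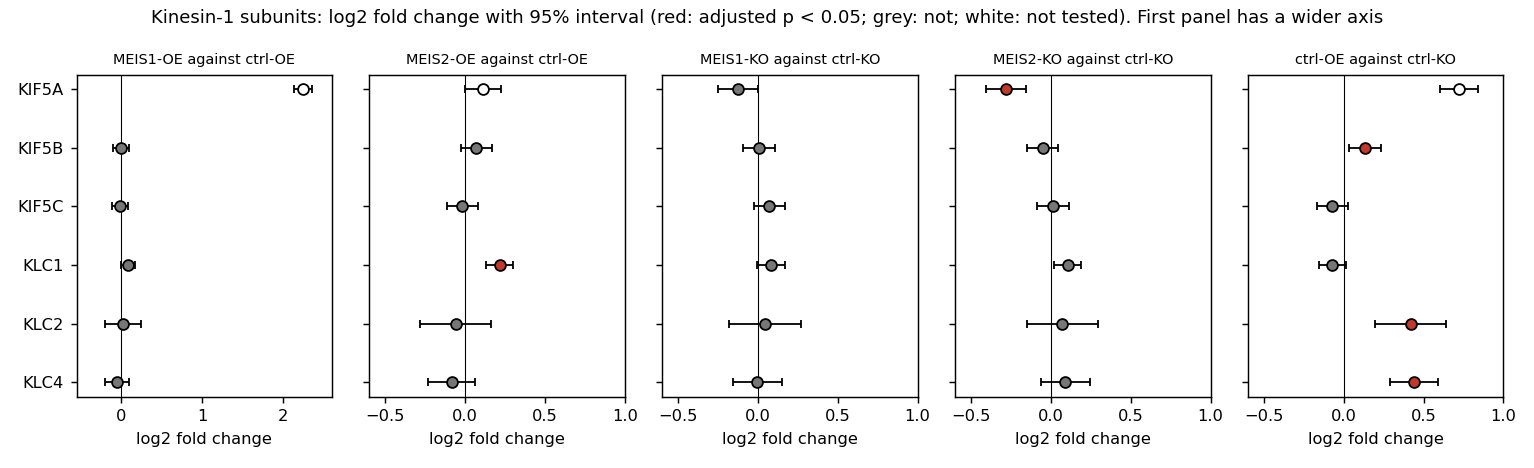
Log2 fold change (x axis) of each kinesin-1 gene (y axis) in 5 comparisons, with 95% intervals. Red points passed adjusted p under 0.05, grey points did not, and white points were not tested. The intervals of white points take no account of the choice of KIF5A. KIF5A is at 2.24 in MEIS1-OE and −0.28 in MEIS2-KO, and KLC1 at 0.22 in MEIS2-OE.

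In ctrl-OE against ctrl-KO 3 of the 5 genes tested were called, all higher in ctrl-OE, a share near the 51.4% of all tested genes that were called, so the count says nothing particular of the subunits. KLC4 ranged from 32.6 to 38.7 CPM in ctrl-OE and from 21.0 to 27.7 CPM in ctrl-KO without overlap (log2 fold change 0.44, SE 0.07, edgeR adjusted p = 4.07e-06). KLC2 was higher by 0.42 (SE 0.11, edgeR adjusted p = 0.00152), and KIF5B by 0.13 (SE 0.05, edgeR adjusted p = 0.0203), a call that was lost without replicate 3 (adjusted p = 0.0961) or replicate 4 (adjusted p = 0.0851) of every condition. KIF5A was 17.4 to 19.6 CPM in ctrl-OE and 10.7 to 12.6 CPM in ctrl-KO, a log2 difference of 0.72 (SE 0.06). The vector system, the guides and any separate handling of the arms cannot be told apart in this comparison, and the order of levels over both arms includes this difference. For MEIS1-OE against MEIS2-OE (7.75% of all genes called), for the MEIS1 contrast of activation against knockout (3.48%) and for the same MEIS2 contrast (2.57%), 0 of the 5 tested genes passed by edgeR. At an unadjusted p under 0.05 they numbered 1 (KLC1, 0.0048), 0 and 0, and with DESeq2 KLC1 passed in the first of these. KIF5A had a log2 difference of 2.37 (SE 0.08) in the MEIS1 contrast and 0.39 (SE 0.08) in the MEIS2 contrast.

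Among the other microtubule motors, some mitotic kinesins fell in MEIS1-OE and in MEIS2-KO. These motors build the spindle and separate chromosomes. In MEIS1-OE 8 of 13 fell, 0 rose and 5 did not pass, where 9.10% of all tested genes passed in either direction, with a median log2 fold change of −0.23 against 0.00 over all tested genes. KIF20A, which acts in cytokinesis, fell by 0.42 on the log2 scale (SE 0.05, edgeR adjusted p = 1.16e-07), the microtubule depolymerase KIF2C fell by 0.19 (SE 0.04) and the chromokinesin KIF4A fell by 0.24 (SE 0.05). In MEIS2-KO (10.0% of all genes called) 5 of 13 fell, led by KIF15 (−0.37), CENPE (−0.32) and KIF11 (−0.26), and 8 did not pass. In MEIS2-OE (1.35%) 1 fell (KIF20A, −0.23), and in MEIS1-KO (1.46%) 0 were called. All 13 were lower in ctrl-OE than in ctrl-KO, with a median of −0.72, where 51.4% of all genes were called. The part of cell division in the KIF5A values was not tested.

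The 23 genes listed as other transport kinesins carry cargo or act on microtubules outside mitosis, so not all are cargo motors. In MEIS1-OE 1 of the 23 rose and 3 fell (9.10% of all genes called). KIF1A, the neuronal motor of synaptic vesicle precursors, rose by 0.39 (SE 0.12, edgeR adjusted p = 0.0283; named as the single riser after its value was seen), and KIF24, KIF16B and KIF13B fell by 0.28, 0.34 and 0.33. In MEIS2-KO, where 4 of 23 were called against 10.0% of all genes, KIF21A (−0.38), KIF24 (−0.20) and KIF1B (−0.15) fell and KIFC2 rose. In MEIS2-OE (1.35% of all genes called) KIF24 alone was called (−0.19), and in MEIS1-KO (1.46%) 0 of 23 were. Kinesin-1 partners, a list of 30 genes for adaptors, cargo proteins and the further light chain KLC3 (mean 0.313 CPM, not included in the light chain shares), had 1 call in MEIS1-OE, the nuclear envelope protein SYNE2 (−0.33, SE 0.09). No partner passed in MEIS2-OE or MEIS1-KO, where 1.35% and 1.46% of all genes were called. In MEIS2-KO 1 rose and 4 fell, against 10.0% of all genes called: the huntingtin-associated adaptor HAP1 rose by 0.60 (SE 0.12, edgeR adjusted p = 0.00105), and DPYSL2, which links tubulin to kinesin-1, and the synaptic adaptor GRIP1, which binds KIF5 heavy chains, fell by 0.15 and 0.24.

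Dynein and dynactin, which move cargo the opposite way, had 2 of 25 genes called in MEIS1-OE, close to the 9.10% of all genes, the light chain DYNLL2 (0.32, SE 0.04, edgeR adjusted p = 1.52e-08) and the dynactin subunit DCTN2 (0.20, SE 0.04, edgeR adjusted p = 7.9e-04). None of the 25 passed in MEIS2-OE, MEIS1-KO or MEIS2-KO, where 1.35%, 1.46% and 10.0% of all genes were called. The plot of the motor and adaptor lists shows KIF5A above all other points in MEIS1-OE, where KIF1A at 0.39 was the highest called gene, and at −0.28 in MEIS2-KO.

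**Figure D4:**
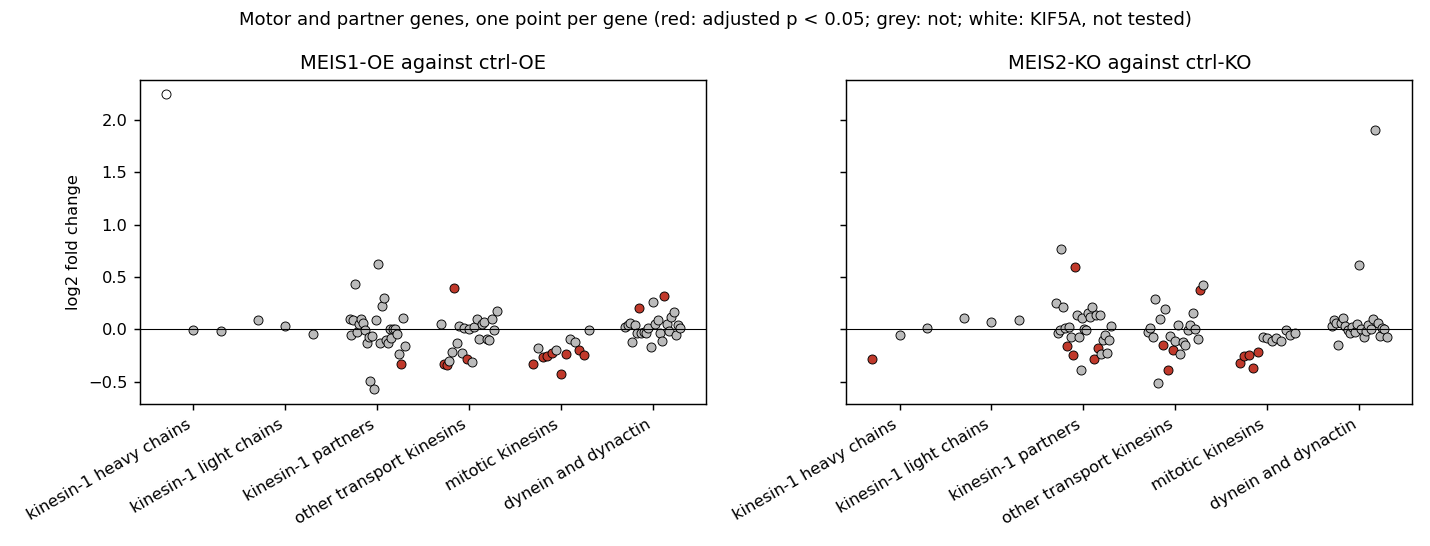
Log2 fold change (y axis) of single genes, grouped by list (x axis), in MEIS1-OE against ctrl-OE and MEIS2-KO against ctrl-KO; red points passed adjusted p under 0.05, grey did not, and the white point is KIF5A, not tested in MEIS1-OE. The 8 called mitotic kinesins in MEIS1-OE are all below 0, and KIF5A is at 2.24.

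Some neuronal genes moved with KIF5A in MEIS1-OE. Of 14 neuronal markers tested, 4 rose and 0 fell in MEIS1-OE, where 9.10% of all genes were called, with a median log2 fold change of 0.01. The neurofilament genes NEFM and NEFL, whose proteins are cargo of KIF5A in axons, rose by 0.64 (SE 0.07) and 0.26 (SE 0.06), and the synaptic vesicle calcium sensor SYT1 rose by 0.26 (SE 0.06). The summed level of the list was 798 to 957 CPM in ctrl-OE and 870 to 993 CPM in MEIS1-OE, which overlap. In MEIS2-KO, where KIF5A fell, NEFM rose by 0.44, NEFL by 0.31 and GAP43 by 0.45, 4 of 14 rose and DCX fell (10.0% of all genes called), and the summed level was 1248 to 1474 CPM against 1345 to 1377 in ctrl-KO. In MEIS2-OE, where 1.35% of all genes were called, NEFM rose by 0.30 and no other neuronal marker passed. The heavy neurofilament gene NEFH and the neuronal intermediate filament gene INA did not pass in either comparison (log2 fold change −0.04 and 0.03 in MEIS1-OE, 0.25 and 0.07 in MEIS2-KO). Of 10 neural stem cell markers 2 fell in MEIS1-OE (HES5 at 0 to 35 counts and SOX1, −0.31; 9.10% of all genes called), and 4 fell and 1 rose in MEIS2-KO (10.0% of all genes called), including PAX6 (−0.52), VIM (0.33) and FABP7 (−0.36). SLC1A3 was the single astrocyte marker of 7 to pass, falling by 0.50 in MEIS1-OE and 0.45 in MEIS2-KO. Of 8 oligodendrocyte lineage markers 0 passed in MEIS1-OE and CSPG4 passed in MEIS2-KO (0.67). The part of these markers in the KIF5A values was not tested.

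In MEIS1-OE the genes matched around KIF5A did not share its fold. This window was chosen with earlier results known. In it, 11 tested genes whose symbols matched the annotation have a span within 100 kb of KIF5A. The counts use some older symbols, such as C3orf37, so a neighbour counted under an older name may be missing. In MEIS1-OE 4 of the 11 rose, 0 beyond 0.58 on the log2 scale, with a median of −0.02, where 9.10% of all genes were called and 1087 of 19689 were higher. MBD6 had a log2 fold change of 0.31 (SE 0.08), the stress transcription factor DDIT3 0.35 (SE 0.09), DCTN2 0.20 (SE 0.04) and ARHGEF25 0.28 (SE 0.04). DCTN2, which begins 1.2 kb from the annotated KIF5A start on the other strand, ranged from 186 to 199 CPM in MEIS1-OE and from 156 to 178 CPM in ctrl-OE without overlap. In MEIS2-OE, where 1.35% of all genes were called, 0 of the 11 passed, with a median of −0.03. In each of MEIS1-KO and MEIS2-KO (1.46% and 10.0% of all genes called) 1 passed, the Hedgehog effector GLI1 (−0.76 and −0.64). Between ctrl-OE and ctrl-KO, where 51.4% of all genes were called, 9 of the 11 neighbours passed and 7 of these were higher in ctrl-OE. The median log2 difference of the 11 was 0.61 there, next to 0.72 for KIF5A.

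**Figure D5:**
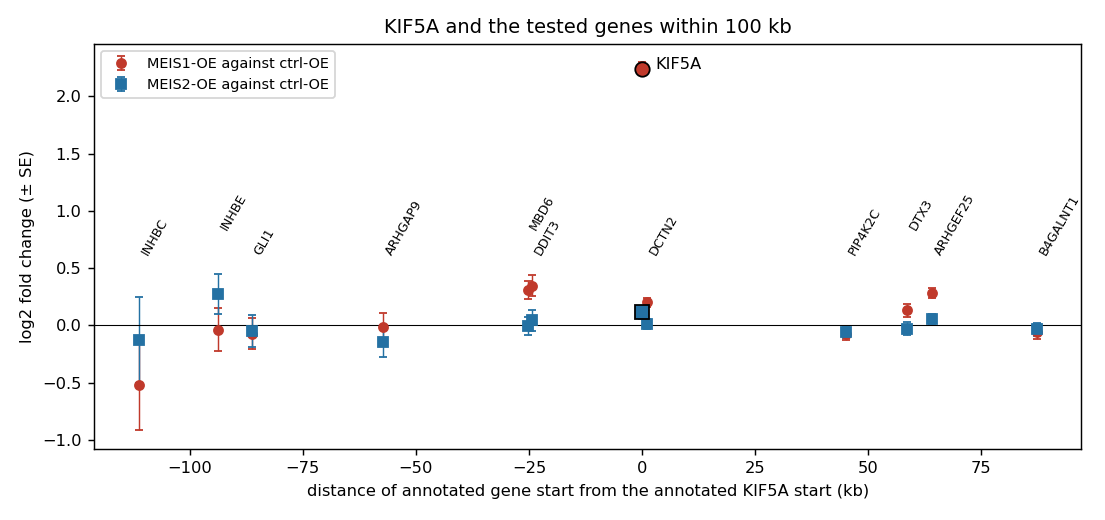
Log2 fold change (y axis, ± SE) of KIF5A and 11 tested genes matched nearby, by distance of their annotated start from that of KIF5A (x axis, kb). Red circles are MEIS1-OE and blue squares MEIS2-OE, both against ctrl-OE. KIF5A is at 2.24 in MEIS1-OE, and DDIT3, the highest neighbour, at 0.35.

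The genes whose log2 CPM followed KIF5A most closely over the 36 libraries, among 13463 genes with a mean of at least 1 CPM, were NRBP1 (Pearson r 0.989), BC033961 (0.988), C3orf37 (0.988), THBS3 (0.985) and PVR (0.981). These values are a description, since the points fall into the 6 conditions and MEIS1-OE stands apart for each gene. BC033961 had a level of 39.8 ± 3.51 CPM in MEIS1-OE and 8.29 ± 0.555 in ctrl-OE, a log2 fold change of 2.26 next to 2.24 for KIF5A. THBS3, a matrix glycoprotein, was 152 ± 6.56 CPM in MEIS1-OE and 57.2 ± 3.41 in ctrl-OE, and NRBP1, a pseudokinase, was on average 340.0 CPM and 198 CPM. MEIS1 itself had r 0.881 and ranked 118th. Among the subunits r was 0.597 for KLC4, 0.529 for KLC2, 0.488 for KIF5B, −0.154 for KLC1 and −0.448 for KIF5C.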

How the data were processed

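Poly-A RNA libraries (TruSeq stranded) of 36 samples were sequenced paired-end by the authors, aligned to hg19 with STAR and counted per gene with HTSeq, as the study's methods state. The submitters' processing notes list STAR 2.7.0a and Trimmomatic 0.39, whereas the study's methods name another STAR version, so the version used is uncertain. The gene annotation and the strand setting are not given in the sources used here. The authors deposited 1 table of raw counts with 28516 gene symbols, and its values were used as deposited. Totals ran from 15429985 to 22940493 counts. No column lacked a sample.

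Genes with at least 10 counts in all (19689) were fitted in 1 edgeR 4.0.16 quasi-likelihood model of 6 conditions (R 4.3.3, TMM, prior count 0.125, no covariate), with two-sided tests and Benjamini-Hochberg adjustment over all tested genes. A gene was called at adjusted p under 0.05, and a log2 fold change beyond 0.58 was a second fact. DESeq2 1.42.0 was an alternative. The activation and knockout contrasts were differences of differences in the same fit. On simulated counts for MEIS1-OE against ctrl-OE (18214 genes), edgeR recovered 97 of 100 genes changed by 0.8 on the log2 scale and 100 of 100 changed by 1.6, with 15 false calls. The changed genes were drawn from well-counted genes, so this recovery does not cover smaller changes or genes with few counts. Lengths came from GENCODE v44 lifted to GRCh37, canonical transcripts where tagged and otherwise the longest (KIF5C). The members and gene lists were chosen with earlier results of these data known. Named genes were the 6 members, up to 3 called genes with the smallest adjusted p per list and comparison, defining markers near 0, and the 5 genes most correlated with KIF5A. Other names were chosen after their values were seen. Within conditions, the 90 pairs of libraries differed beyond sampling noise (chi-square per degree of freedom at least 2.74), so none was counted as a repeat.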

Additional observations from a re-analysis of the deposited data

Results flagged for a closer look

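Among 36 combinations of a kinesin-1 gene and a condition with 6 libraries, 3 had a library far from the others by Dixon's criterion, which chance alone flags in about 1 of 20. KIF5A was 12.6 CPM in ctrl-KO replicate 6, where the other libraries reached at most 11.3 CPM. KLC2 was 58.2 CPM in MEIS1-OE replicate 3, where the next library had 85.4 CPM. KLC4 was 38.7 CPM in ctrl-OE replicate 6, where the next library had 34.6 CPM. The KIF5A call in MEIS2-KO and the KLC4 call between the controls both stood when replicate 6 was left out of every condition.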

How the results depend on the processing

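Over 14 alternative analyses, KIF5A in MEIS2-KO kept its direction and call (log2 fold change −0.30 to −0.20, adjusted p 0.00189 to 0.0379), as did KLC1 in MEIS2-OE (0.20 to 0.23, adjusted p 3.68e-05 to 0.0207), KLC2 (0.32 to 0.54) and KLC4 (0.39 to 0.49) between the controls. The number of members called in MEIS2-KO was 2 instead of 1 with the replicate block, with only the compared groups and with both DESeq2 fits, KLC1 being added (adjusted p = 0.0346, 0.0304 and 0.0453). In MEIS1-OE against MEIS2-OE it was 1 instead of 0 (KLC1) with median-ratio size factors, the filterByExpr filter, the replicate block and both DESeq2 fits. The replicate block changed no other member's call. Nothing in the labels says that a number marks a shared culture or day, and in 0 of 15 pairs of conditions did all 6 same-numbered pairs of libraries have correlated deviations from their condition means above 0.1. Within an arm the mean correlation was 0.0764 for the same number and −0.0155 for other numbers, 10 of 36 pairs exceeded 0.1, and 31 of 72 comparisons had their own number as the best match, a hint from the data that the samples may share something by number. The cause of these changes was not tested. No called value reversed, and 38 values that passed in neither analysis changed sign, all within 0.12 of 0 on the log2 scale. With shrinkage by ashr the untested KIF5A values moved to 0.01 in MEIS2-OE and to 0.29 in the MEIS2 contrast. KIF5A had 137 to 261 counts per library in the knockout arm, which sets its counting error there. Counts over all genes moved by over 1.5 times in several comparisons. Leaving out 1 replicate number gave 108 to 260 called genes in MEIS1-KO (287 in full), 946 to 2003 in MEIS2-KO (1974), 1152 to 2133 in MEIS1-OE (1791), 163 to 246 in MEIS2-OE (266), 398 to 746 in the MEIS1 contrast (686) and 226 to 489 in the MEIS2 contrast (506). The replicate block gave 458 and DESeq2 435 in MEIS1-KO, and only the compared groups gave 835 in the MEIS2 contrast.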
